A study of Columba livia with 12 samples.

Results

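The genes COL1A1, COL1A2 and COL3A1 encode the chains of type I and type III collagen, and their messenger RNA was followed with age in the breast muscle of the White-King, a meat breed of the domestic pigeon (Columba livia). The 3 genes were chosen by name, as the entries that RefSeq calls COL1A1 (gene ID 102092022), COL1A2 (102090396) and COL3A1 (102087546), out of 12918 entries in the mRNA table. Each occurred once in that table and in none of the 9158 rows of the lncRNA table. RNA was sequenced from frozen breast muscle of birds aged 1 day, 14 days, 28 days or 2 years, with 3 libraries per age. The 9 libraries of day 1, day 14 and day 28 were analysed, and the libraries of the 2-year-old birds were not analysed here. Sex, diet and housing of the birds are not given in the sources used here, nor whether libraries of one age came from different birds; the p-values therefore refer to the spread among libraries, which may be technical. Levels are in TPM as the authors deposited them, a relative transcript unit scaled for gene length that keeps no count of reads, so depth and counting error are unknown.

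Type I and type III collagen are the fibril-forming collagens of muscle connective tissue. Fibroblasts make the chains as procollagen, which is hydroxylated and wound into a helix in the endoplasmic reticulum, exported, trimmed at both ends, packed into fibrils and crosslinked. A type I molecule combines COL1A1 chains with a COL1A2 chain, whereas a type III molecule is built of COL3A1 chains alone. Type I collagen makes thick, stiff fibrils, and type III is typical of thinner fibrils in young and distensible tissue.

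Muscle transcripts were abundant under the tissue label: ACTA1, skeletal muscle actin, stood at 12345 TPM at day 1, 23680 TPM at day 14 and 18063 TPM at day 28 (stage means), and all 12 measured muscle markers of 18 listed passed the filter on low values. The mRNA table took a larger share of the total at day 1 than later (841238 ± 4657 TPM at day 1, 756387 ± 26854 TPM at day 14 and 778740 ± 14882 TPM at day 28, SD, n = 3). Over all tested genes the median log2 change was -0.31 for day 14 against day 1, -0.07 for day 28 against day 14 and -0.38 for day 28 against day 1. After each library was rescaled by its median ratio these medians were 0.01, -0.02 and -0.01. Counts for gene lists at the first step are therefore given also after rescaling. Listed genes were looked up by symbol or synonym in the mRNA table only, and those found there are called measured.

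All 3 collagen chains fell from day 1 to day 14 and fell again to day 28, but by different amounts. COL1A1 lost most, COL3A1 least, and the chain that led at day 1 was the lowest at day 28. The size of the falls depended on the processing. Over 15 alternatives the log2 change from day 1 to day 28 ran from -4.24 to -3.69 for COL1A1. It ran from -3.43 to -2.95 for COL1A2 and from -2.5 to -1.97 for COL3A1.

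COL1A1, the alpha 1 chain of type I collagen, was present at 2778, 2104 and 2105 TPM in the day 1 libraries, at 388, 329 and 427 TPM at day 14 and at 131, 160 and 112 TPM at day 28. No library of one age reached into the range of another. The level fell by 2.6 ± 0.18 on the log2(TPM + 1) scale from day 1 to day 14 (SE; adjusted p = 4.94e-06) and by a further 1.5 ± 0.18 to day 28 (adjusted p = 0.00814), by limma's moderated test with Benjamini-Hochberg adjustment over all 11951 tested genes. At day 28 the mean level was 17.3-fold lower than at day 1, 5.78% of its value after hatching. In rank among the 12918 entries, COL1A1 stood between 40 and 65 at day 1, between 232 and 328 at day 14 and between 603 and 847 at day 28.

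COL1A2, the alpha 2 chain of type I collagen, was present at 2252, 1790 and 1752 TPM at day 1, at 327, 323 and 380 TPM at day 14 and at 196, 200 and 162 TPM at day 28. The ages did not overlap here either, although the lowest day 14 library and the highest day 28 library lay closer than for COL1A1. The level fell by 2.48 ± 0.15 on the log2 scale to day 14 (SE; limma adjusted p = 2.61e-06) and by 0.88 ± 0.15 from day 14 to day 28 (limma adjusted p = 0.025). The second step did not pass without day 14 replicate 3 (adjusted p = 0.0861), without day 28 replicate 1 (0.0663) or without day 28 replicate 3 (0.0909), within a range of 0.0171 to 0.0909 over all 15 alternatives. By day 28 the mean level was 10.4-fold lower than at day 1, 9.63% of its starting value.

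COL3A1, the only chain of type III collagen, was present at 1551, 1479 and 1204 TPM at day 1, at 644, 730 and 531 TPM at day 14 and at 265, 245 and 291 TPM at day 28. The ages were again separate. The level fell by 1.15 ± 0.16 on the log2 scale to day 14 (SE; limma adjusted p = 0.000232) and by 1.24 ± 0.16 from day 14 to day 28 (limma adjusted p = 0.0111). Its mean at day 28 was 5.29-fold lower than at day 1, so 18.9% of the starting level remained, against 5.78% for COL1A1. In rank it stood between 86 and 112 at day 1, between 159 and 187 at day 14 and between 366 and 419 at day 28.

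**Figure D1:**
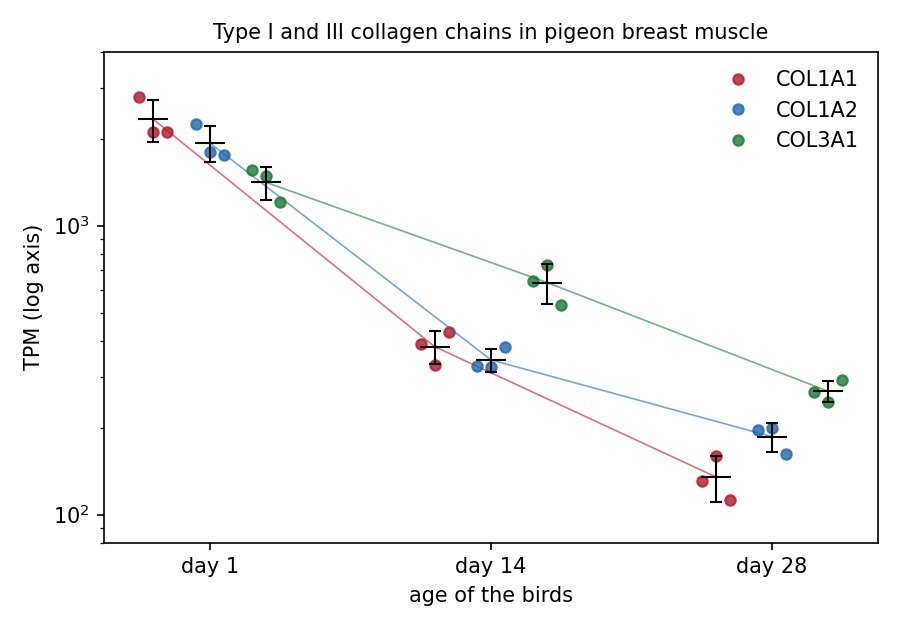
TPM (log axis) of COL1A1, COL1A2 and COL3A1 in each library at day 1, day 14 and day 28; points are libraries, black bars the mean ± SD of 3 libraries, and lines join the means. COL1A1 goes from the highest chain at day 1 (mean 2329 TPM) to the lowest at day 28 (135 TPM), while COL3A1 is the highest chain at day 14 and day 28.

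A fall between day 1 and day 14 was common among genes, and one between day 14 and day 28 was rare. Of the 11951 tested genes 39.2% were called lower at day 14 than at day 1, 0.87% lower at day 28 than at day 14, and 43.9% lower at day 28 than at day 1. The shares called higher were 13.6%, 0.544% and 16.4%. After median-ratio rescaling 25.9% were called lower and 24.5% higher at the first step. The number called lower at the second step, 104, ranged from 11 to 122 when 1 library was left out, lowest without day 28 replicate 3. Libraries did not overlap, with the later age lower, in 44.9%, 13.0% and 49.0% of the genes in these comparisons. Only 74 genes (0.619%) were called lower in both steps, and all 3 chains were among them, in places 2 to 4 when these genes are ordered by their day 1 level. Place 1 was held by an entry without a symbol (log2 changes -2.64 and -1.46). From day 14 to day 28, 42 genes had a lower log2 change than COL1A1, 82 a lower one than COL3A1 and 274 a lower one than COL1A2. From day 1 to day 14 there were 130 genes with a lower log2 change than COL1A1, 168 with a lower one than COL1A2 and 1779 with a lower one than COL3A1. The F test over the 3 ages, which called 58.4% of all genes, called each of the chains (limma adjusted p of 4.73e-07 for COL1A1, 5e-07 for COL1A2 and 5.51e-06 for COL3A1).

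The steps before and after day 14 differed for the alpha 2 chain of type I collagen. The log2 change of COL1A2 from day 14 to day 28 minus that from day 1 to day 14 was 1.60 ± 0.27 (SE; limma adjusted p = 0.00446, a contrast added after the values were seen), so its fall slowed. Such a positive difference was called in 14.8% of all genes. For COL1A1 the difference was 1.10 ± 0.31 (adjusted p = 0.0356), a call kept in 3 of 15 alternatives (adjusted p between 0.0291 and 0.193). For COL3A1 it was -0.08 ± 0.28 (adjusted p = 0.866), a difference that did not pass the test.

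Because a ratio of chains within a library does not depend on how the library was scaled, the balance between chains was compared directly. At day 1 every library held more COL1A1 than COL1A2 and more COL1A2 than COL3A1. At day 14 the order in every library was COL3A1, COL1A1, COL1A2, and at day 28 it was COL3A1, COL1A2, COL1A1.

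The ratio of COL3A1 to COL1A1 was 0.558, 0.703 and 0.572 at day 1, 1.66, 2.22 and 1.24 at day 14 and 2.02, 1.53 and 2.59 at day 28. The day 1 libraries lay below all others, while day 14 and day 28 overlapped. The ratio differed between the ages by an exact permutation test of the 3 age labels (p = 0.0179, adjusted over the 3 ratios 0.0179; the smallest p that 9 libraries allow is 0.00357). It was 2.73-fold higher at day 14 than at day 1 (log2 difference 1.45 ± 0.26, SE). The log2 difference between day 28 and day 14 was 0.27 ± 0.33.

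The ratio of COL3A1 to COL1A2 was 0.689, 0.826 and 0.687 at day 1, 1.97, 2.26 and 1.40 at day 14 and 1.36, 1.22 and 1.79 at day 28. Again the day 1 libraries were lowest and the later ages overlapped (exact permutation p = 0.00714, adjusted 0.0107). Day 14 exceeded day 1 by 1.33 ± 0.22 on the log2 scale, and day 28 differed from day 14 by -0.35 ± 0.26.

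The ratio of the chains that share the type I molecule was lowest at day 28. COL1A1 to COL1A2 was 1.23, 1.17 and 1.20 at day 1, 1.19, 1.02 and 1.12 at day 14, and 0.671, 0.800 and 0.692 at day 28. The first ages overlapped and every day 28 library lay below both. The ratio differed between the ages (exact permutation p = 0.00714, adjusted 0.0107), with a log2 difference of -0.12 ± 0.07 between day 14 and day 1 and of -0.62 ± 0.10 between day 28 and day 14 (SE). For a single pair of ages, 3 libraries against 3 cannot give an exact two-sided p below 0.10, so none of the 9 pairwise differences of ratios could pass.

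**Figure D2:**
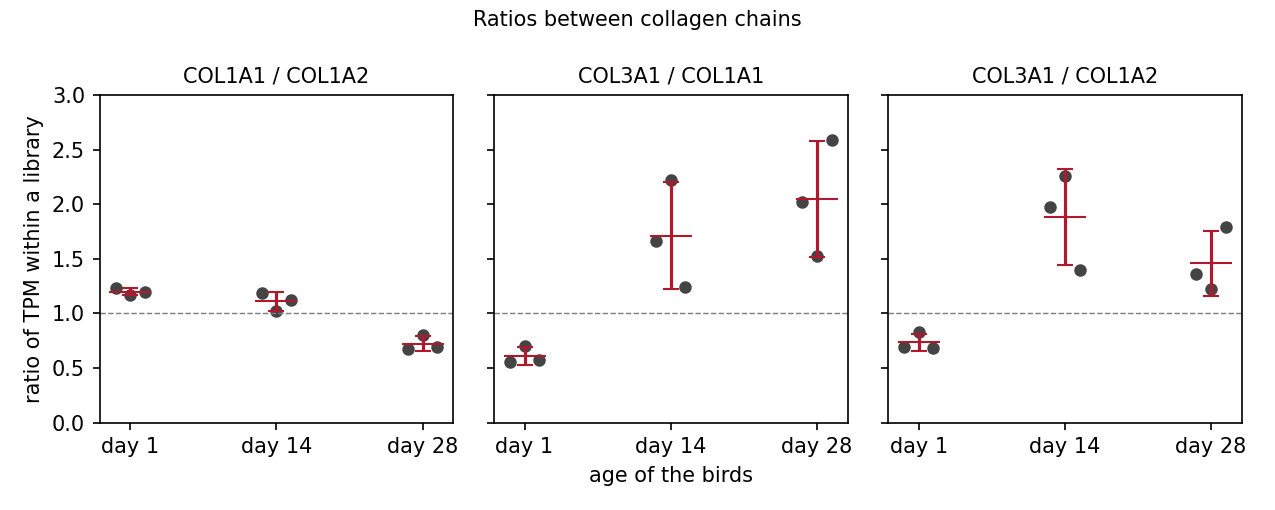
Ratio of TPM within each library for the 3 pairs of chains at day 1, day 14 and day 28; grey points are libraries, red bars the mean ± SD of 3 libraries and the dashed line marks equal TPM. COL1A1 to COL1A2 crosses equality between day 14 (mean 1.11) and day 28 (0.721), and both ratios of COL3A1 cross it between day 1 and day 14.

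Among libraries of one age the chains of type I collagen kept step with each other and COL3A1 did not always follow. At day 1 replicate 1 was highest for all 3 chains. At day 14 replicate 3 was highest for COL1A1 and COL1A2 and lowest for COL3A1, and replicate 2 was the reverse. At day 28 replicate 2 was highest for COL1A1 and COL1A2 and lowest for COL3A1, with replicate 3 the reverse. The summed TPM of the 3 chains was accordingly close among libraries of the later ages, at 1359, 1381 and 1338 TPM at day 14 and 592, 606 and 564 TPM at day 28, after 6581, 5374 and 5061 TPM at day 1.

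The sum made up 0.674% ± 0.0936 of the mRNA table at day 1, 0.18% ± 0.00435 at day 14 and 0.0754% ± 0.00164 at day 28 (SD, n = 3; exact permutation p = 0.00357, the smallest possible). Because each chain fell without overlap between the ages, the sum had to separate them, and its p adds nothing to the levels of the chains. Within the sum, COL1A1 took 41.0% ± 1.62 at day 1 and 22.8% ± 3.35 at day 28. COL3A1 took 25.0% ± 2.23 at day 1, 46.6% ± 6.59 at day 14 and 45.6% ± 5.54 at day 28. COL1A2 took 34.1% ± 0.664, 25.3% ± 2.72 and 31.6% ± 2.53.

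The 38 genes of the table with a collagen chain symbol were summed as collagen TPM, and entries without such a symbol were left out. The 3 chains held 62.6% ± 1.84 of this collagen TPM at day 1, 37.7% ± 4.24 at day 14 and 21.9% ± 1.96 at day 28. COL4A1 and COL4A2, the widespread basement membrane chains of type IV collagen, went from 10.3% ± 0.491 to 29.1% ± 4.19 and 43.3% ± 1.06. Neither gene was called lower: COL4A1 stood at 633 ± 44.5, 697 ± 199 and 746 ± 55.3 TPM and was not called in any step, and COL4A2 at 295 ± 34.8, 376 ± 106 and 418 ± 18.3 TPM, called higher only for day 28 against day 1 (limma adjusted p = 0.0392). The other 33 chain genes together went from 27.1% ± 1.93 to 33.2% ± 0.0696 and 34.7% ± 2.94. Among them COL28A1 rose from 76.1 ± 28.3 TPM at day 1 to 370 ± 89.2 TPM at day 14 (limma adjusted p = 0.0012). It had 356 ± 184 TPM at day 28. The type IV genes and COL28A1 were named after their values were seen. Of the 34 other tested collagen genes, 23 fell and 3 rose from day 1 to day 14 (67.6% lower and 8.82% higher, against 39.2% and 13.6% of all genes; median log2 change -1.26). After rescaling 22 fell and 6 rose (64.7% and 17.6%, against 25.9% and 24.5% of all genes), with a median of -0.91. From day 14 to day 28, 5 fell and 0 rose (14.7% lower, against 0.87% of all genes). The 5 were COL4A5, COL4A6, COL14A1, COL15A1 and COL20A1. For COL15A1 the second step did not pass without day 1 replicate 1, day 14 replicate 1 or 3, or day 28 replicate 1 or 3 (adjusted p up to 0.104), and its first step did not pass after median-ratio rescaling (0.128).

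**Figure D3:**
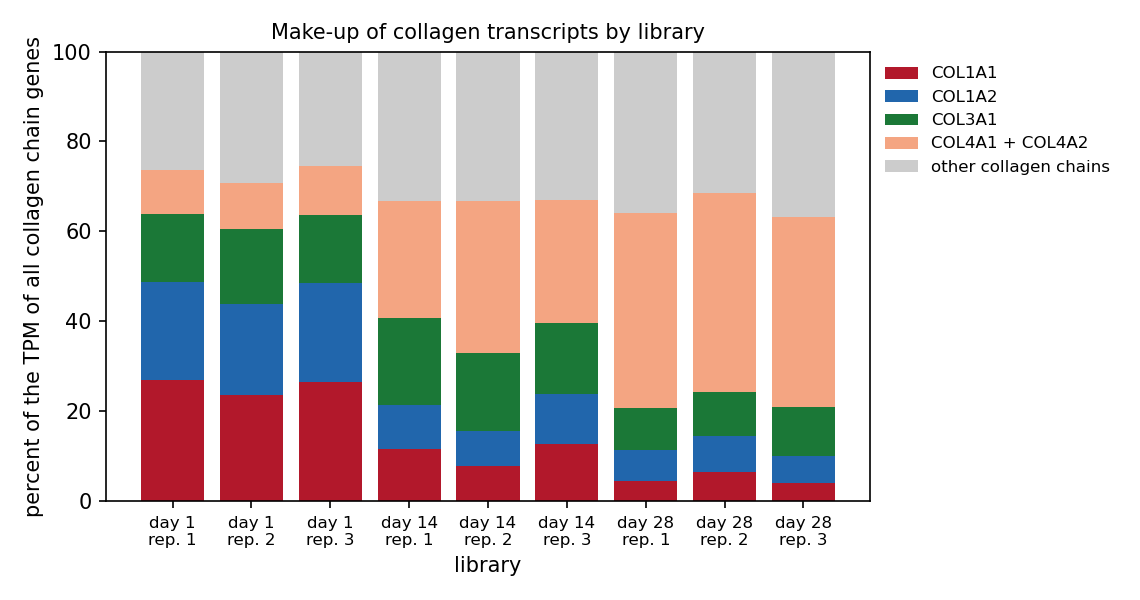
Share of each library's collagen TPM, in percent, held by COL1A1, COL1A2, COL3A1, by COL4A1 with COL4A2, and by the other 33 collagen chain genes. The 3 fibrillar chains shrink from 60.5 to 63.8% of the total at day 1 to 20.8 to 24.2% at day 28, and the type IV pair grows from 9.84 to 10.8% to 42.3 to 44.4%.

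The other fibrillar collagens, some of which join type I fibrils and set their diameter, partly followed. Of 6 measured members of 8 listed, 4 fell and 1 rose from day 1 to day 14 (66.7% lower, against 39.2% of all genes), and 0 were called from day 14 to day 28. Their median log2 change was -1.36 at the first step. After rescaling it was -1.07, with 4 lower and 2 higher (66.7% and 33.3%, against 25.9% and 24.5% of all genes). COL5A1 went down from 244 ± 44.4 to 52.5 ± 8.79 TPM (log2 change -2.19, adjusted p = 8.19e-06) and COL5A2 from 211 ± 17.8 to 68.1 ± 10.5 TPM (-1.62, adjusted p = 2.08e-05). COL11A1, a chain best known from cartilage fibrils, fell from 32.7 ± 5.41 to 1.71 ± 0.654 TPM. COL24A1 was the one that rose, from 1.29 ± 0.565 to 3.38 ± 1.07 TPM. At day 28 COL5A1 had 35.1 ± 2.66 TPM and COL5A2 53.4 ± 5.75 TPM, not called against day 14 (adjusted p = 0.144 and 0.307).

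Among genes that fold, modify and export procollagen more fell than rose, and the main collagen chaperone rose. From day 1 to day 14, 20 of 35 measured members fell and 4 rose (57.1% lower and 11.4% higher, against 39.2% and 13.6% of all genes), with a median of -0.57. After rescaling 15 were lower and 6 higher (median -0.21), where 25.9% of all genes were lower and 24.5% higher. From day 14 to day 28, 0 of the 35 were called, near the shares of all genes (0.87% lower and 0.544% higher).

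SERPINH1, the collagen-specific chaperone HSP47 that binds the procollagen helix, was present at 164, 108 and 99.5 TPM at day 1, at 248, 258 and 222 TPM at day 14 and at 308, 338 and 296 TPM at day 28. Its order of ages was the opposite of that of its client chains, and no ages overlapped. It rose by 1.00 on the log2 scale to day 14 (limma adjusted p = 0.00125) and stood 1.37 above day 1 at day 28 (adjusted p = 0.000123). The step from day 14 to day 28 did not pass (log2 change 0.37, adjusted p = 0.365). Its ratio to the summed TPM of the 3 chains was 0.0215 ± 0.00292 at day 1, 0.178 ± 0.0112 at day 14 and 0.534 ± 0.0215 at day 28 (SD, n = 3; exact permutation p = 0.00357, adjusted over 7 ratios added after the values were seen 0.00357). Because SERPINH1 rose and the summed chains fell without overlap, this ratio had to separate the ages, and its p adds nothing to those levels.

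Genes of other steps of chain processing fell, rose or were not called. P4HA3, a catalytic subunit of prolyl 4-hydroxylase, had 20.9 ± 2.97 TPM at day 1 and 3.46 ± 0.87 TPM at day 14 (log2 change -2.31, adjusted p = 3.39e-05). P4HB, the shared subunit of that enzyme, fell from 345 ± 41.9 to 117 ± 12.6 TPM and PPIB, a prolyl isomerase of the endoplasmic reticulum, from 1223 ± 64.2 to 474 ± 85.1 TPM; both were named after their values were seen. P3H2, a prolyl 3-hydroxylase, fell by 1.71 on the log2 scale by day 14, and FKBP7, a foldase, from 45.5 to 11.8 TPM (stage means). CREB3L1, a membrane-bound transcription factor that activates type I collagen genes in mouse, fell from 36.3 ± 6.97 to 8.75 ± 3.34 TPM. LARP6, which in mammals binds the start of type I and III collagen messages, fell from 3.24 ± 0.448 to 1.23 ± 0.0857 TPM.

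The main catalytic subunits P4HA1 and P4HA2 stayed within 31.5 to 49.9 TPM in their stage means and were not called at either step (adjusted p between 0.225 and 0.857); after median-ratio rescaling P4HA1 was called higher at day 28 than at day 1. PLOD2, the lysyl hydroxylase of collagen ends, had 52.7 ± 1.49, 40.0 ± 8.12 and 52.5 ± 21.0 TPM and was not called. PLOD1, its helix counterpart, fell from 47.9 ± 6.14 to 29.9 ± 3.32 TPM (adjusted p = 0.00597, but 0.0789 after median-ratio rescaling). MIA3, which helps to load procollagen into export vesicles, and TMEM38B, an ion channel of the endoplasmic reticulum needed for collagen assembly in human bone, were among the risers (15.3 to 30.0 TPM and 11.4 to 30.5 TPM in stage means), named after their values were seen.

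**Figure D4:**
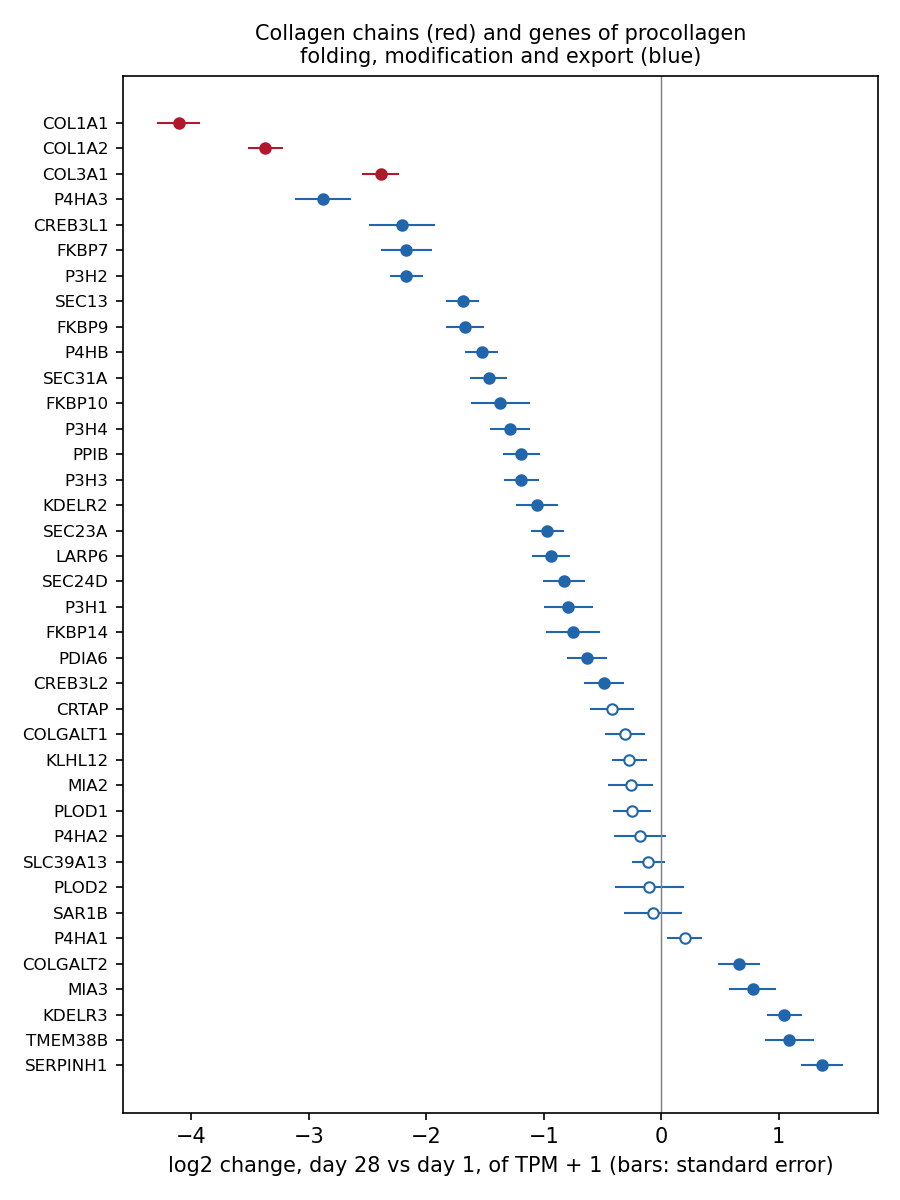
Log2 change of TPM + 1 between day 28 and day 1 for the 3 collagen chains (red) and the 35 measured genes of procollagen folding, modification and export (blue); bars are standard errors and filled points passed the test at an adjusted p below 0.05. The chains lie at -4.11, -3.37 and -2.39, and SERPINH1 lies at the other end at 1.37.

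Outside the cell, enzymes that trim and crosslink collagen were mixed. Of 11 tested genes 4 fell and 2 rose from day 1 to day 14 (36.4% lower and 18.2% higher, against 39.2% and 13.6% of all genes), with a median of -0.37. After rescaling 4 were lower and 3 higher (36.4% and 27.3%, median -0.03), where 25.9% of all genes were lower and 24.5% higher. ADAMTS2, which removes the amino-terminal propeptide, fell from 32.6 ± 5.16 to 12.1 ± 1.8 TPM, BMP1, which removes the carboxy-terminal one, by 0.92 on the log2 scale to 18.7 ± 4.34 TPM, and LOX, the lysyl oxidase that starts crosslinking, from 68.2 ± 5.8 to 34.5 ± 16.2 TPM (adjusted p = 0.000197, 0.00252 and 0.00828). TLL2, a relative of BMP1, fell from 3.61 to 0.578 TPM. PCOLCE2, an enhancer of procollagen trimming named after its values were seen, went the other way, from 21.1 ± 1.18 to 37.4 ± 5.88 TPM (adjusted p = 0.00145). None of the 11 was called from day 14 to day 28.

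Most genes for proteins that coat or bridge the fibrils fell at the first step. Of 26 tested genes 17 fell and 3 rose from day 1 to day 14 (65.4% lower, against 39.2% of all genes), with a median of -1.29. After rescaling 16 were lower and 4 higher (median -0.93), where 25.9% of all genes were lower and 24.5% higher. From day 14 to day 28, 4 fell (15.4%, against 0.87% of all genes, and 3 after rescaling) and 0 rose. LUM, the small proteoglycan lumican, fell from 503 ± 67.4 to 116 ± 22.9 and 39.4 ± 13.2 TPM, OGN from 301 ± 5.66 to 110 ± 3.93 and 52.9 ± 14.6 TPM, and FMOD, fibromodulin, from 49.3 ± 7.17 to 22.7 ± 4.39 and 11.4 ± 2.15 TPM, called at both steps. COL14A1, a collagen bound to fibril surfaces, also fell at both, to 1.66 ± 0.52 TPM at day 28. The second step of these depended on single libraries: FMOD had an adjusted p of 0.0479 that rose above 0.05 in 12 of 15 alternatives (0.154 without day 14 replicate 3), COL14A1 one of 0.0393 (0.124 without day 28 replicate 3), OGN one of 0.0274 (0.0893 without day 14 replicate 3) and LUM one of 0.0158 (0.0512 without day 14 replicate 3).

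DCN, decorin, fell from 931 ± 70 to 340 ± 41.2 TPM at the first step and had 242 ± 44.5 TPM at day 28 (adjusted p for the second step 0.177). KERA and THBS4 were among the largest first-step falls of the list (18.3 to 1.22 and 81.4 to 0.361 TPM). In contrast SPARC, a collagen-binding glycoprotein, held at 2645 ± 342, 2214 ± 412 and 2195 ± 117 TPM, so that from day 14 on it exceeded the sum of the 3 chains in stage means. FN1, fibronectin, had 142 ± 17, 124 ± 40.4 and 116 ± 12.3 TPM. Neither was called in any comparison. ASPN, asporin, which competes with decorin for collagen in mammals, rose from 23.4 ± 5.5 to 200 ± 123 TPM (adjusted p = 0.00041, named after its values were seen).

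Genes listed for collagen breakdown and its inhibitors were called lower at the first step about as often as all genes. Of 14 tested members of 20 listed, 5 fell and 0 rose from day 1 to day 14 (35.7% lower against 39.2%). After rescaling 4 were lower and 3 higher (28.6% and 21.4%, against 25.9% and 24.5% of all genes), with the median turning from -0.29 to 0.05. The 5 that fell were MMP16, PEPD, TIMP3, TIMP4 and RECK, so this share mixes breakdown enzymes and inhibitors. MMP1, MMP8, MMP13, MMP14, FAP and TIMP1 were listed but not found in the mRNA table, so the share cannot show how breakdown as a whole changed. MMP2, a gelatinase, had 117 ± 16.8, 128 ± 26.2 and 101 ± 11.2 TPM, and CTSK, a lysosomal collagenase, 47.7 ± 6.49, 37.9 ± 7.8 and 47.2 ± 3.9 TPM. Neither passed in the deposited values, whereas after median-ratio rescaling MMP2 was called higher at day 14 (adjusted p = 0.0146) and CTSK higher at day 28 than at day 1 (adjusted p = 0.028). The inhibitors split: TIMP3 fell from 169 to 35.3 TPM by day 14, and TIMP2 had 177 ± 29.7, 247 ± 49.2 and 410 ± 71.2 TPM, higher at day 28 than at day 1 (log2 change 1.21, adjusted p = 0.000387). MMP16 and RECK, both at the cell surface, fell from 13.0 to 4.95 and from 22.0 to 9.77 TPM.

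Of 7 collagen receptors 3 fell and 1 rose by day 14 (42.9% lower, near the 39.2% of all genes). After rescaling 1 fell and 2 rose (14.3% and 28.6%, against 25.9% and 24.5% of all genes), with the median turning from -0.18 to 0.13. DDR2, the receptor kinase of fibrillar collagen, fell from 15.3 ± 1.53 to 5.41 ± 0.957 TPM (adjusted p = 9.04e-05). ITGA1, a collagen-binding integrin chain, rose from 21.3 to 66.7 TPM, while ITGA11 had 6.79 ± 1.67 and 6.68 ± 3.74 TPM (adjusted p = 0.761). Among 35 tested regulators of collagen genes 14 fell and 4 rose by day 14 (40.0% lower against 39.2%). After rescaling 11 fell and 5 rose (31.4% and 14.3%, against 25.9% and 24.5% of all genes), with the median turning from -0.28 to 0.06. TGFB3, a growth factor that drives collagen synthesis, fell from 98.4 ± 37.9 to 21.5 ± 4.79 TPM (adjusted p = 0.000111), and TGFB2 had 39.6 ± 7.34 and 38.6 ± 2.13 TPM (adjusted p = 0.946). At day 28 TGFB2 had 24.8 ± 7.94 TPM, lower than at day 1 (limma adjusted p = 0.0254, but 0.287 after median-ratio rescaling). CCN2, a target and mediator of that pathway, had 46.7 ± 9.34, 34.7 ± 22.4 and 79.6 ± 21 TPM and was not called in any comparison. PRRX1 and MKX, transcription factors of connective tissue cells, fell by 1.78 and 1.66 on the log2 scale by day 14. COL2A1, PCOLCE, MMP14, BGN, TGFB1 and SCX, also chosen for description, were not found in the mRNA table and so were not analysed here.

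Markers of fibroblasts, the main source of the chains, fell as well, and in whole tissue fewer cells and less RNA per cell cannot be told apart. Of 15 measured markers of 18 listed, 10 fell and 1 rose from day 1 to day 14 (66.7% lower, against 39.2% of all genes; median log2 change -1.11). After rescaling 8 fell and 1 rose (53.3% lower, against 25.9% of all genes; median -0.75). From day 14 to day 28, 3 fell and 0 rose, where 0.87% of all genes fell. Their summed level was 2413 to 2940 TPM at day 1, 1325 to 1624 TPM at day 14 and 1232 to 1298 TPM at day 28, and none was at 0. Relative to 14 of these markers (without COL6A3), COL1A1 went from 0.911 ± 0.113 to 0.283 ± 0.0597 and 0.112 ± 0.0207, COL1A2 from 0.756 ± 0.0764 to 0.253 ± 0.0403 and 0.154 ± 0.0159, and COL3A1 from 0.551 ± 0.0185 to 0.464 ± 0.0526 and 0.221 ± 0.0213 (ratio of TPM, SD, n = 3). Each of these ratios, added after the values were seen, differed between the ages (exact permutation p = 0.00357, the smallest possible). COL1A1 and COL1A2 fell so much more than the marker sum that their ratios had to separate the ages. For these chains the p adds nothing to the levels. The make-up of the marker sum changed with age, so the ratios are not levels per fibroblast. CLEC3B, the marker that rose, had 89.3 ± 11.6, 229 ± 38.9 and 357 ± 75.1 TPM. GSN, not called, had 313 ± 62.1 TPM at day 1 and 250 ± 66.1 TPM at day 28, while DCN fell from 931 ± 70 to 242 ± 44.5 TPM.

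Relative to PDGFRA alone, a receptor of fibroblasts and their precursors with 56.1 ± 7.25, 18.0 ± 1.31 and 12.0 ± 0.672 TPM (lower at the first step, limma adjusted p = 1.8e-05, and not called at the second, 0.0935), the type I chains still went down with age, COL1A1 from 41.8 ± 6.77 to 21.2 ± 1.69 and 11.2 ± 1.92. The ratio of COL3A1 to PDGFRA was 25.2 ± 1.15 at day 1, 35.7 ± 7.8 at day 14 and 22.3 ± 2.29 at day 28 (exact permutation p = 0.00357, but 0.05 without day 1 replicate 1). Its day 14 libraries were the highest and its day 28 libraries all lay below those of day 1. The ratios to PDGFRA were also added after the values were seen.

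Measured markers of other collagen-rich tissues were low (cartilage, bone and skin) or fell in part with the chains (tendon), and their part in the result was not tested. The 7 measured tendon markers summed to 192 to 280 TPM at day 1, 82.3 to 144 TPM at day 14 and 65.1 to 75.1 TPM at day 28. Of them 4 fell at the first step, as deposited and after rescaling (57.1%, against 39.2% and 25.9% of all genes). These were THBS4 (81.4 ± 24.6 to 0.361 ± 0.129 TPM), TNMD (14.5 ± 1.89 to 1.40 ± 0.943 TPM), MKX and FMOD. At day 28 against day 1, 5 tendon markers were lower and 0 higher (71.4% lower, against 43.9% of all genes). Median-ratio rescaling gave 5 lower and 1 higher in that comparison (71.4% and 14.3%, against 29.6% and 28.5% of all genes). COMP had 32.5 ± 6.64, 31.0 ± 7.87 and 39.4 ± 2.68 TPM, with every day 28 library above those of day 1. TNC had 5.74 ± 1.25, 5.45 ± 2.08 and 4.49 ± 0.85 TPM. Neither COMP nor TNC was called in the deposited values. The 8 measured cartilage markers of 13 listed summed to 10.9 to 13.8 TPM at day 1 and 3.58 to 4.75 TPM at day 28. Of the 5 that were tested 3 fell at the first step, as deposited and after rescaling (60.0%, against 39.2% and 25.9% of all genes). The 5 measured bone markers of 10 listed summed to 7.73 to 11.9 TPM at day 1 and 7.39 to 9.89 TPM at day 28. At the first step 1 of the 3 tested fell and 1 rose, as deposited and after rescaling (33.3% each). Of all genes 39.2% fell and 13.6% rose as deposited, and 25.9% and 24.5% after rescaling. PHEX fell from 6.11 ± 2.73 to 0.328 ± 0.19 TPM and ALPL rose from 1.46 ± 0.47 to 5.35 ± 1.13 TPM. The 2 measured skin and feather markers of 10 listed summed to at most 2.83 TPM. The listed keratins were not among them, so these sums cannot show that the tissues were absent. At day 14 against day 1, when 13.6% of all genes were called higher and 39.2% lower (24.5% and 25.9% after rescaling), 5 of 9 endothelial markers were higher and 0 lower (7 and 0 after rescaling). Of 5 macrophage markers 4 were higher and 0 lower under both scalings. Of 9 smooth muscle and pericyte markers 3 were higher and 3 lower, but 3 and 1 after rescaling. Of 6 adipocyte markers 1 was higher and 0 lower (2 and 0 after rescaling).

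The genes whose log2(TPM + 1) followed a chain most closely over the 9 libraries are given as a description, since those libraries share 3 ages. For COL1A1 they were EPRS1, TFG, GALNT5, DBN1 and, in place 5, COL1A2 (Pearson r = 0.9925). EPRS1, the enzyme that charges the transfer RNAs of glutamate and proline, headed that list (r = 0.9966) and had 106 ± 8.31, 54.8 ± 1.35 and 37.0 ± 0.348 TPM (limma adjusted p for the second step 0.0529). TFG organises export sites of the endoplasmic reticulum and had 83.3 ± 5.51, 56.2 ± 4.34 and 43.3 ± 1.34 TPM. The first step of TFG passed in the deposited values (limma adjusted p = 0.00349) but not after median-ratio rescaling (0.242). For COL1A2 the nearest were PAG1, FGFR1, TTYH2, COL14A1 and DUT, and COL1A1 came in place 16. For COL3A1 they included ASPM (r = 0.9894), IYD, COL15A1 and ANOS1, while COL1A1 came in place 63 and COL1A2 in place 272.

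The chains do not lie next to each other in the RefSeq assembly bColLiv1.pat.W.v2, which the authors did not name and which was used for names and gene order only. COL5A2 lies 2 genes beyond COL3A1 and fell with it at the first step. SGCE and CASD1 follow COL1A2; SGCE, a sarcoglycan, fell from 36.9 ± 0.279 to 20.6 ± 5.85 TPM, and CASD1 had 9.88 ± 1.03 and 8.70 ± 0.624 TPM and was not called. On one side of COL1A1 lies MPP2, a scaffold protein, which fell from 9.69 ± 1.54 to 0.884 ± 0.29 TPM (log2 change -2.51), and on the other lie PPP1R9B, which was not called (14.0 ± 0.821 and 11.8 ± 2.4 TPM), and PDK2, a mitochondrial kinase, which rose from 18.1 ± 5 to 102 ± 23.8 TPM. LOC102091836 lies next to COL1A1, on the side of MPP2, and fell from 3.15 ± 0.977 to 0.728 ± 0.323 TPM. SGCA, next to COL1A1 on the other side, stood in the lncRNA table and was not tested. BET1 near COL1A2 and WDR75 near COL3A1 also fell at the first step. LOC102090580 near COL1A2, and GULP1 and TFPI near COL3A1, were not called at that step. Neighbours of a collagen gene thus included genes that fell, rose or were not called.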

How the data were processed

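Per the labels, frozen breast muscle gave total RNA (Trizol) for Illumina libraries. STAR 2.6.0c and Cufflinks 2.1.1 are named in the submitters' processing notes; their roles, the genome build and the annotation are not given in the sources used here. Per gene and column, the authors deposited TPM for 12 columns in an mRNA and a lncRNA table, which together summed to 991186 to 993735 TPM per library. Names of 9 columns matched a sample title; the other 3 matched no label and were not used, so the planned comparisons with 2-year-old birds were not made. Symbols came from RefSeq (12256 of 12918 entries matched).

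Genes that reached 1 TPM in 3 or more of the 9 libraries were tested with limma 3.58.1 in R 4.3.3 (eBayes with trend) on log2(TPM + 1), which understates changes of low genes, with one mean per age and Benjamini-Hochberg adjustment per comparison at 0.05. Ratios and sums were tested by exact permutation in Python 3.11.15. Both tests were checked on simulated data. The members and gene lists were chosen with earlier results of these data known. Named genes were the 3 chains, up to 3 called genes per list and comparison with the largest change, a fixed set of 33 collagen-related genes, and the 5 genes with a mean of at least 5 TPM most like each chain; the text gives the most informative of them, and 1 gene of the last kind is not reported here. Tried as alternatives were a pseudocount of 0.1, no filter, 3 rescalings, a replicate block and leaving out each library.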

Additional observations from a re-analysis of the deposited data

How the results depend on the processing

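Over 15 alternatives each, the falls of COL1A1 and COL3A1 at both steps, and of all 3 chains from day 1 to day 14 and from day 1 to day 28, kept direction and call. Leaving out 1 library gave log2 changes of -0.94 to -0.79 for the COL1A2 step from day 14 to day 28, and 0.90 to 1.27 for the COL1A1 difference between steps. Replicate numbers did not pair the libraries (correlations of deviations for same-numbered libraries from -0.0719 to 0.0466). With a replicate block the COL1A2 step stayed at -0.88 (limma adjusted p = 0.057) and the COL1A1 difference at 1.10 (0.0617), the exact p over permutations within replicate numbers, at lowest 0.0278, was 0.0833 for COL3A1/COL1A1 and 0.0556 for COL3A1/COL1A2, and 38 genes were called higher and 58 lower at day 28 than at day 14. The COL1A1 difference between steps was 0.79 after median-ratio rescaling, 0.72 after quantile normalization and 0.90 with the mRNA table rescaled to 1000000. Median-ratio rescaling called 2925 genes higher and 3101 lower for day 14 against day 1 (1623 and 4688 as deposited), 111 higher for day 28 against day 14 (65) and 3405 higher for day 28 against day 1 (1960); quantile normalization called 2961 and 3431 higher for day 14 and day 28 against day 1. CTSK, day 28 against day 1, turned from -0.01 to 0.40 with median-ratio rescaling. Leaving out 1 library gave 12 to 111 genes higher and 11 to 122 lower between day 28 and day 14, with the lowest counts without day 28 replicate 3 and 15 and 25 without day 14 replicate 3. The causes were not tested. TPM holds no depth, so counting error of the low genes is unknown.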
